A study of Mus musculus with 15 samples.

Results

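The transcripts described here are those of 10 secreted or membrane-bound factors by which tumour cells can attract or sustain leukocytes, namely 9 chemokines (Ccl2, Ccl5, Ccl7, Ccl9, Cxcl1, Cxcl10, Cxcl12, Cxcl16 and Cx3cl1) and the macrophage growth factor Csf1. They were chosen by name, with earlier results of these data known. All 10 have a row among the 53088 gene symbols shared by the FPKM tables of 2 mouse tumour lines. In MC38, a colon adenocarcinoma line, 3 libraries came from cells transduced with a retroviral vector carrying mouse Ssbp4 cDNA followed by EGFP (OE), and 4 from wild-type cells (WT) for which the labels name no empty vector. In B16-F10, a melanoma line, 4 libraries came from cells electroporated with Cas9 and a mixture of guide RNAs against Ssbp4 (KO), and 4 from cells that received a guide against an intergenic site, labelled wild type (WT). Both lines were grown alone in culture with serum, and the labels mention no cytokine treatment and no cloning of the edited cells. The tissue label of the MC38 libraries reads melanoma, while their library names abbreviate colon adenocarcinoma. Nothing in the labels ties the libraries of a group to separate cultures. The p-values therefore measure only library-to-library spread, which may be technical.

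Chemokines are small proteins that bind G protein-coupled receptors on leukocytes and set the direction in which they migrate. They are classed by the spacing of their first cysteines into CC, CXC and CX3C types. Ccl2 and Ccl7 recruit monocytes through Ccr2, Ccl5 acts on T cells, monocytes and other cells, and Cxcl10, an interferon-induced chemokine, acts on activated T cells and NK cells through Cxcr3. Cxcl1 recruits neutrophils through Cxcr2, Cxcl12 retains and guides many cell types through Cxcr4, and Ccl9 is a mouse CC chemokine that binds Ccr1. Cx3cl1 and Cxcl16 are made as membrane proteins that are shed by Adam10 and Adam17, and Csf1 acts through Csf1r to keep macrophages alive and growing.

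The promoters of 6 of the 10 members matched RefSeq's promoter table (build GRCm38.p6), and the 250 bases before the annotated start are shown for Cxcl10, Cx3cl1, Cxcl1 and Csf1, as examples of transcripts that rose (Cxcl10 and Cx3cl1), did not pass the test (Cxcl1) or fell (Csf1) in OE cells. Each reads 5′ to 3′ towards the gene, and capitals mark matches on either strand to the NF-kB consensus, to the interferon response element (GAAA, any 2 bases, GAAA) or to TATAAA. Of all 32851 windows of this length in the table, 3.90% held an NF-kB match, 2.98% an interferon element match and 12.4% a TATAAA match.
Cxcl10, chr5:92348890-92349139, minus strand: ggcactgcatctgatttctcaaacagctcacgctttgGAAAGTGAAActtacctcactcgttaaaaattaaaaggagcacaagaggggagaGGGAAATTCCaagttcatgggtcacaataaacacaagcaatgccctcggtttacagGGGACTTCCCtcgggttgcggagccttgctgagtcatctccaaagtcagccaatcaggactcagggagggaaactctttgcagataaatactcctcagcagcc
Cx3cl1, chr8:94771930-94772179, plus strand: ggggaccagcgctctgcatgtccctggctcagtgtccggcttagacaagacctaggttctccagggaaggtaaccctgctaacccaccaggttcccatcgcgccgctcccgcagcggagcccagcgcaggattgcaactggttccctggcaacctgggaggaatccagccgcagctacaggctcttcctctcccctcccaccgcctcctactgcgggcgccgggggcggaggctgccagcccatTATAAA
Cxcl1, chr5:90890995-90891244, plus strand: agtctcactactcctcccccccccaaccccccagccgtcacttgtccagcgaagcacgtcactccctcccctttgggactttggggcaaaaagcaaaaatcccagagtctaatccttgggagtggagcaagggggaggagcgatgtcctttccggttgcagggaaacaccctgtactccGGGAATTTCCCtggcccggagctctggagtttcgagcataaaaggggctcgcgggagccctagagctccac
Csf1, chr3:107760470-107760719, minus strand: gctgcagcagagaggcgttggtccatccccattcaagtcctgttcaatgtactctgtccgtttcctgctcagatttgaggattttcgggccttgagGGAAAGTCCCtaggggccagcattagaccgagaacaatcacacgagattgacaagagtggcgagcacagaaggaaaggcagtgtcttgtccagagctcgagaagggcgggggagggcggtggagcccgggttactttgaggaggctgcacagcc
The Cxcl10 window held 1 interferon element match, 213 to 204 bases before the start, and NF-kB matches 159 to 150 and 103 to 94 bases before it. The Cxcl1 window held NF-kB matches on both strands that overlap each other, from 71 to 61 bases before the start. The Csf1 window held 1 on the strand opposite to the one shown, 154 to 145 bases before the start. In the Cx3cl1 window the only match was TATAAA, directly before the annotated start. A match is a description of the letters and not evidence of binding.

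Estimated from the spacing of low values, MC38 libraries held 31.9 to 37.8 M fragments and B16-F10 libraries 31.9 to 48.4 M. Ssbp4 stood at 462 to 581 FPKM (fragments normalised to gene length and library size) in MC38 OE libraries against 13.2 to 17.6 FPKM in WT, and at 19.0 to 24.3 FPKM in B16-F10 KO libraries against 32.4 to 37.4 FPKM in WT. Among B16-F10 WT libraries, 3 and 4 lay apart from the rest of the line on the first principal component of log2(FPKM + 1). Both stood at 17.8, where the other 6 libraries lay between -10.3 and -1.91. On the second component KO library 4 lay apart from its group, at 1.04 where KO libraries 1 to 3 lay between 8.68 and 11.1. In MC38, where 9 of 10 leukocyte markers averaged under 1 FPKM, the summed leukocyte list stood at 3.64 to 4.38 FPKM in OE and 2.24 to 3.04 FPKM in WT libraries, most of it Cd68, and its part in the results below was not tested. Cd3e, Nkg7 and Tyrobp were among the markers listed at 0 in all 7 MC38 libraries. In B16-F10 that sum was 2.34 to 4.05 FPKM in KO and 1.86 to 3.13 FPKM in WT libraries, with Ptprc, Cd3e, Nkg7, Itgam, Adgre1 and Tyrobp listed at 0. The 7 melanocyte markers summed to 13644 to 14154 FPKM in KO and 10982 to 14075 FPKM in WT libraries of B16-F10. In MC38 they summed to 0.934 to 1.44 FPKM in OE and 1.30 to 2.11 FPKM in WT libraries. The epithelial list summed to only 8.96 to 10.8 FPKM in OE and 6.68 to 8.86 FPKM in WT libraries of MC38, and Cdx2 was listed at 0. Its genes went different ways: the keratin Krt8 averaged 9.45 FPKM in OE and 3.22 FPKM in WT, whereas its partner Krt18 averaged 0.0607 FPKM in OE and 3.23 FPKM in WT, and the adhesion protein Epcam was listed at 0 in OE and averaged 0.846 FPKM in WT.

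The first comparison set MC38 OE libraries against MC38 WT libraries. Of the 10 members 7 had a mean of at least 1 FPKM and were tested, of which Ccl2, Ccl5, Ccl7, Cxcl10 and Cx3cl1 rose, Csf1 fell and Cxcl1 did not pass. Among all 10748 tested genes 23.9% rose and 23.6% fell at an adjusted p under 0.05 (limma on log2(FPKM + 1), Benjamini-Hochberg), so 47.5% of genes passed and a call in this line is common. The median log2 fold change of the 7 tested members was 0.78, beside -0.01 over all tested genes. The libraries of the groups did not overlap for 6 of the 7, where 25.5% of all tested genes lay wholly higher and 25.1% wholly lower in OE. Cx3cl1 reached the filter only through its OE libraries, so its difference was partly fixed by the filter.

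Of the monocyte attractants, both rose. Ccl2 stood at 49.2, 46.2 and 51.5 FPKM in OE libraries 1 to 3, against 19.6, 18.5, 18.6 and 16.4 FPKM in WT libraries 1 to 4. Every OE library lay far above every WT library, and the mean was 2.68-fold that of WT on the FPKM scale (log2 fold change of FPKM + 1 1.38, SE 0.06, adjusted p = 6.79e-08 by limma). Ccl7, its neighbour on chromosome 11 with the same receptor, stood at 7.48, 5.31 and 4.61 FPKM in OE and at 3.52, 1.95, 2.93 and 3.33 FPKM in WT. The groups did not overlap, but the OE libraries were spread more widely than for Ccl2 (log2 fold change 0.79, SE 0.17, adjusted p = 0.00300 by limma). These values rest on about 125 to 227 fragments for Ccl7 in OE and 59 to 103 in WT libraries, where Ccl2 had about 1798 to 2118 in OE and 596 to 814 in WT.

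Ccl5 had the largest fold change of the 7. It stood at 9.02, 9.28 and 9.90 FPKM in OE libraries, against 2.02, 2.21, 2.07 and 1.50 FPKM in WT. The groups lay far apart with little spread in either, the OE mean being 4.82-fold the WT mean (log2 fold change 1.82, SE 0.09, adjusted p = 1.35e-07 by limma). Only 0.400% of all tested genes differed as far as Ccl5 in either direction. Ccl9, the gene next to Ccl5, was at the limit of detection in the same libraries, at 0.00860, 0.0191 and 0.00970 FPKM in OE and 0.0447, 0.0174, 0 and 0.0204 FPKM in WT, which is about 0 to 5 fragments per library. It was not tested across genes, and the groups overlapped (two-sided exact permutation p = 0.543).

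Cxcl10, the most abundant of the 9 chemokines in WT, rose as well. It stood at 39.9, 40.8 and 42.2 FPKM in OE libraries and at 22.7, 24.4, 23.1 and 23.4 FPKM in WT. The replicates of each group lay within a few FPKM of each other, and the OE mean was 1.75-fold the WT mean (log2 fold change 0.78, SE 0.04, adjusted p = 1.80e-07 by limma). The other ligands of its receptor stayed near 0, Cxcl9 averaging 0.0232 FPKM in OE and 0.00465 FPKM in WT, and Cxcl11 averaging 0.0526 FPKM in OE and 0.00413 FPKM in WT.

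Cx3cl1, the membrane-bound CX3C chemokine, stood at 1.87, 1.72 and 1.87 FPKM in OE libraries and at 0.827, 0.740, 0.778 and 0.841 FPKM in WT. The groups did not overlap (ratio of FPKM means 2.29, log2 fold change 0.65, SE 0.07, adjusted p = 4.62e-05 by limma). Cxcl16, the other membrane-bound member, was near 0 in both groups, at 0.0480, 0.149 and 0.0862 FPKM in OE and 0.169, 0.0531, 0.140 and 0.143 FPKM in WT, with overlapping groups (two-sided exact permutation p = 0.486).

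Cxcl12 stood at 0.421, 0.613 and 0.585 FPKM in OE libraries 1 to 3, whereas it was at 0.0185 and 0.00930 FPKM in WT libraries 2 and 3 and listed at 0 in WT libraries 1 and 4. That is about 130 to 171 fragments in each OE library and 0 to 6 in each WT library, so the transcript was low in OE cells and close to the limit of detection in WT cells. All OE libraries lay above all WT libraries (two-sided exact permutation p = 0.0286, the smallest that 3 against 4 libraries allow, 1 of 3 such tests in this line). In a limma fit with the filter lowered to a mean of 0.1 FPKM, over 14127 genes, its difference of 0.61 on the log2(FPKM + 1) scale had an adjusted p = 9.25e-05, but Cxcl12 reached that filter only through its OE libraries, so its difference there was partly fixed by the filter. Ackr3, which scavenges Cxcl12, stood at 1.13 to 1.32 FPKM in OE and 0.217 to 0.426 FPKM in WT libraries and averaged under 1 FPKM over the line, so it was not tested.

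Cxcl1, the neutrophil attractant, stood at 1.12, 1.21 and 1.80 FPKM in OE libraries and at 1.72, 2.00, 1.31 and 1.86 FPKM in WT. OE library 3 lay within the WT range, and the difference did not pass (log2 fold change -0.20, SE 0.12, adjusted p = 0.195 by limma). Without OE library 3 it did, at a log2 fold change of -0.33 (adjusted p = 0.0473 by limma).

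Csf1 was the member that fell. It stood at 53.5, 51.3 and 52.7 FPKM in OE libraries, against 84.6, 91.2, 88.0 and 90.5 FPKM in WT. The OE libraries lay close together and below every WT library, at 59.3% of the WT mean (-0.74 on the log2 scale, SE 0.04, adjusted p = 1.51e-07 by limma). The other ligand of its receptor, Il34, averaged 9.65 ± 1.21 FPKM in OE and 9.35 ± 0.463 FPKM in WT (SD, n = 3 and 4) and did not pass (log2 fold change 0.04, SE 0.07, adjusted p = 0.715 by limma). Csf1r itself did not exceed 0.0278 FPKM in any MC38 library.

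**Figure D1:**
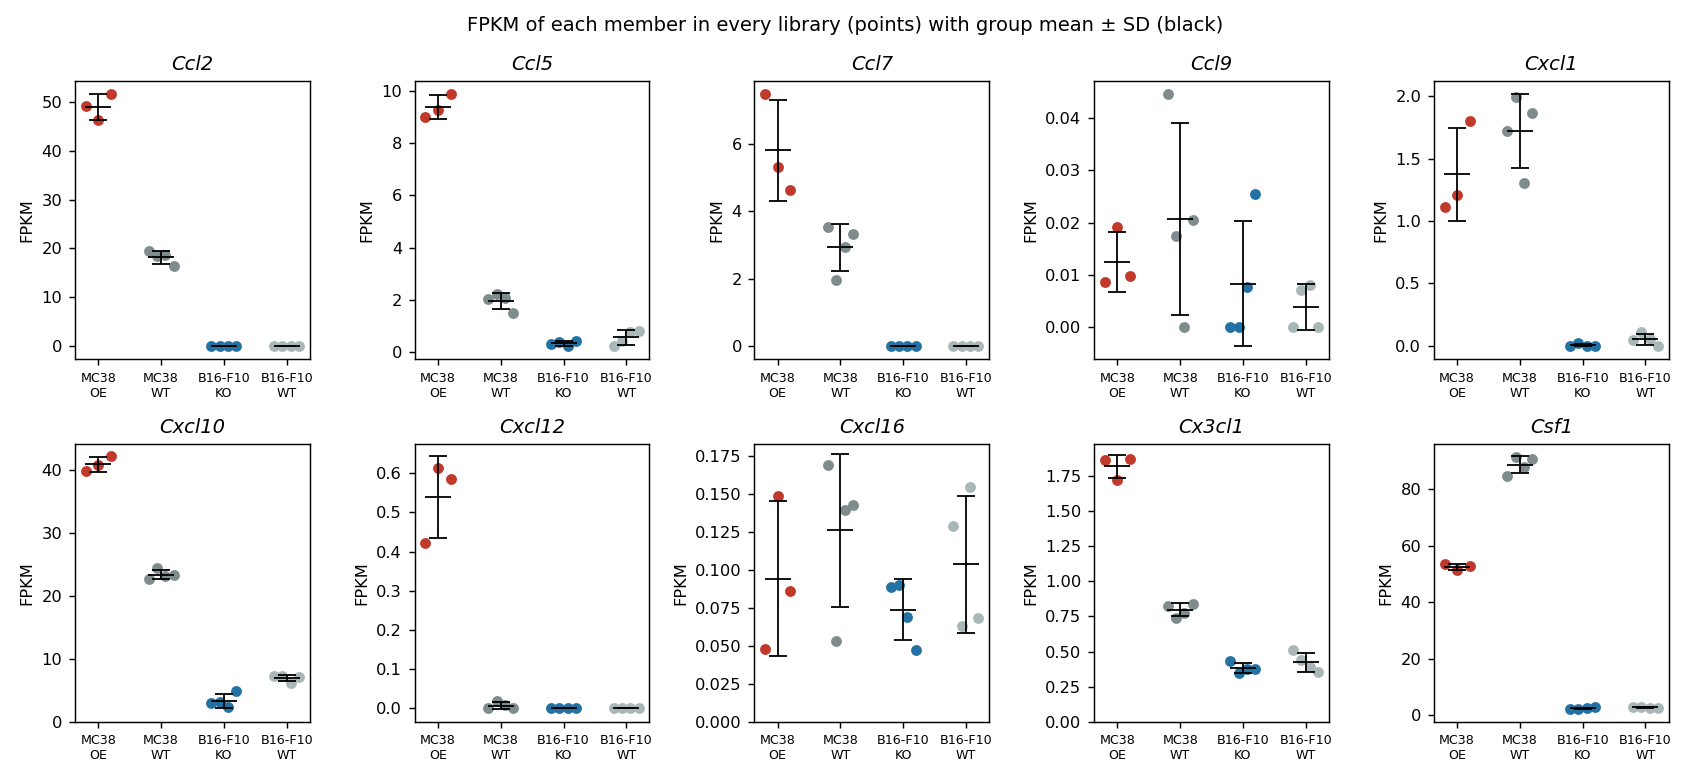
FPKM (vertical axes, each on its own scale) of the 10 members in every library of the 4 groups; points are libraries in replicate order, black bars the group mean ± SD. Ccl2, Ccl5, Ccl7, Cxcl10, Cxcl12 and Cx3cl1 separate upward and Csf1 downward in MC38 OE, and Cxcl10 is the member whose B16-F10 KO libraries, at 2.32 to 4.94 FPKM, all lie below WT, at 6.20 to 7.32 FPKM.

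The order of the members differed between the groups. FPKM is a level per gene length, so members can be set side by side. In OE libraries Csf1 (52.5 ± 1.13 FPKM) and Ccl2 (49.0 ± 2.66 FPKM) came first with overlapping ranges, followed by Cxcl10 (41.0 ± 1.18 FPKM), Ccl5, Ccl7, then Cx3cl1 and Cxcl1 with overlapping ranges (SD, n = 3). In WT libraries Csf1 led by a wide margin (88.6 ± 3.01 FPKM), ahead of Cxcl10 (23.4 ± 0.739 FPKM) and Ccl2 (18.3 ± 1.33 FPKM; SD, n = 4). Below them came Ccl7, Ccl5 and Cxcl1, where the range of Ccl5 overlapped those of Ccl7 and Cxcl1. Cx3cl1 followed, clear of Cxcl1. The ratio of Ccl2 to Csf1 was 0.901 to 0.977 in OE libraries and 0.181 to 0.231 in WT libraries. The 9 chemokines summed to 105 to 113 FPKM in OE and 47.4 to 50.6 FPKM in WT libraries. Ccl2 made up 43.9 to 45.7% of that sum in OE and 34.6 to 38.7% in WT libraries, and Cxcl10 made up 36.6 to 38.8% in OE and 44.9 to 49.2% in WT libraries. Since these are bulk RNA values, a change in the share of cells that make a transcript cannot be told apart from a change in the amount per cell.

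**Figure D2:**
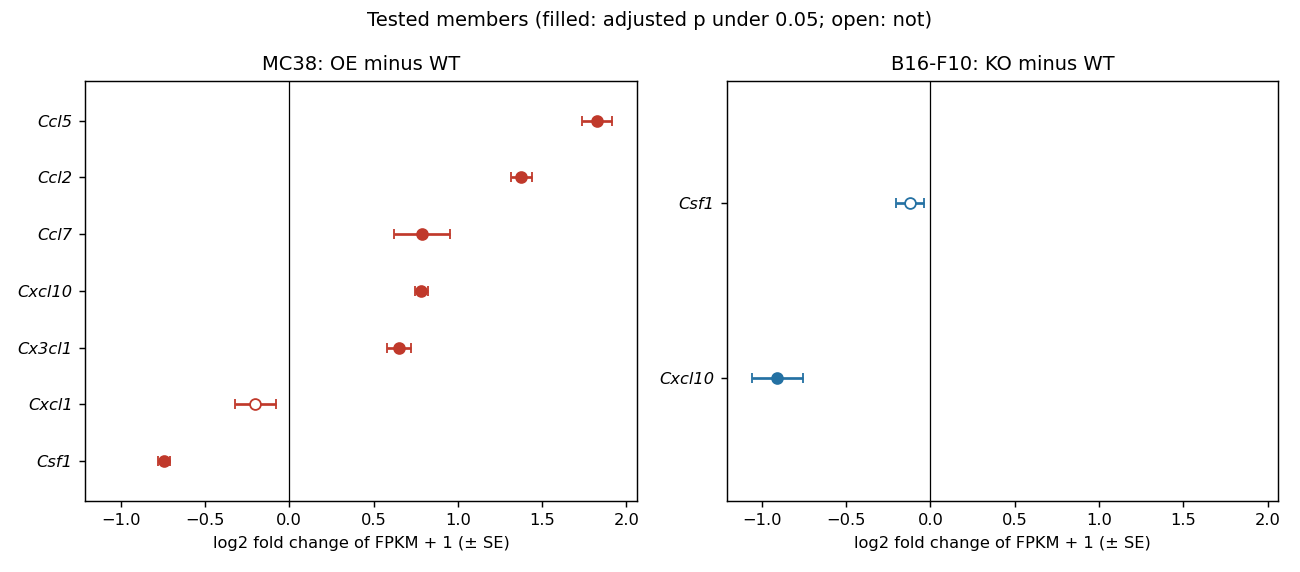
Log2 fold change of FPKM + 1 (horizontal axis, ± SE from limma) of the tested members in MC38, OE minus WT, and in B16-F10, KO minus WT; filled points passed an adjusted p of 0.05. In MC38 Ccl5 (1.82) lies furthest right and Csf1 (-0.74) furthest left, while in B16-F10 Cxcl10 (-0.91) is filled and Csf1 (-0.12) is open.

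The second comparison set B16-F10 KO libraries against B16-F10 WT libraries. Most members were low in this line. Ccl2, Ccl7 and Cxcl12 were listed at 0 in all 8 libraries, 5 further members averaged under 1 FPKM, and only Cxcl10 and Csf1 were tested. Cxcl10 fell and Csf1 did not pass, where 0.899% of the 10902 tested genes fell, 1.33% rose and 2.23% passed in either direction.

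Cxcl10 stood at 3.01, 3.08, 2.32 and 4.94 FPKM in KO libraries 1 to 4, against 7.25, 7.32, 6.20 and 7.10 FPKM in WT libraries 1 to 4. No KO library reached the lowest WT library, as for 5.32% of tested genes, and KO library 4 lay nearest to it. The KO mean was 47.9% of the WT mean (log2 fold change -0.91, SE 0.15, adjusted p = 0.0280 by limma), and 0.202% of tested genes differed as far in either direction. Of 8 fits that each left out 1 library, 1 passed, that without KO library 4 (log2 fold change -1.07, adjusted p = 0.00152 by limma). The others gave log2 fold changes of -0.96 to -0.79, with adjusted p = 0.109, 0.114 and 0.0859 without KO libraries 1 to 3 and 0.0526, 0.0509, 0.0596 and 0.0759 without WT libraries 1 to 4 (limma). Leaving out the WT libraries that lay apart, 3 and 4, gave a log2 difference of -0.97, and leaving out WT libraries 1 and 2 gave -0.85, as values with no test.

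Cxcl10 lies within Art3, an ADP-ribosyltransferase family gene on the opposite strand, and their exons overlap in GENCODE M21. Art3 also fell, standing at 0.884 to 1.19 FPKM in KO and 1.98 to 2.59 FPKM in WT libraries (log2 fold change -0.63, SE 0.09, adjusted p = 0.0158 by limma). The library kit keeps strand, but whether the authors counted by strand is not given in the sources used here, and the part of either gene in the other's B16-F10 value was not tested. In MC38, where Cxcl10 reached 42.2 FPKM, Art3 did not exceed 0.0189 FPKM.

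Csf1 stood at 2.31, 2.21, 2.62 and 2.79 FPKM in KO libraries and at 3.01, 3.03, 2.64 and 2.47 FPKM in WT libraries of B16-F10. The groups overlapped, with WT libraries 3 and 4 inside the KO range (log2 fold change -0.12, SE 0.08, adjusted p = 0.432 by limma). Without WT libraries 3 and 4, which lay apart, the log2 difference was -0.21, and without WT libraries 1 and 2 it was -0.03. Il34 and Csf1r were at or near 0 here, at no more than 0.0378 and 0.00550 FPKM in any library.

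The remaining members of B16-F10 overlapped between groups. Ccl5 stood at 0.314, 0.401, 0.218 and 0.432 FPKM in KO libraries and at 0.230, 0.442, 0.782 and 0.806 FPKM in WT libraries (two-sided exact permutation p = 0.200). Its 2 highest values were those of WT libraries 3 and 4, which lay apart from the others as a whole. Without them the log2 difference was 0.01, and without WT libraries 1 and 2 it was -0.42. Without WT library 1 alone the difference of -0.32 reached an exact permutation p = 0.0286, the smallest that 4 against 3 libraries allow. Cx3cl1 stood at 0.429, 0.347, 0.379 and 0.378 FPKM in KO libraries and at 0.511, 0.438, 0.391 and 0.351 FPKM in WT libraries (two-sided exact permutation p = 0.343). Its log2 difference was -0.04, and it was -0.09 without WT libraries 3 and 4 and 0.01 without WT libraries 1 and 2. Cxcl16 ranged over 0.0473 to 0.0904 FPKM in KO and 0.0634 to 0.154 FPKM in WT libraries (exact permutation p = 0.343), Cxcl1 reached 0.0224 FPKM in KO and 0.112 FPKM in WT libraries (exact permutation p = 0.143), and Ccl9 reached 0.0255 FPKM in KO and 0.00810 FPKM in WT libraries (exact permutation p = 0.714). Without WT library 4, Cxcl1 also reached an exact permutation p = 0.0286. These are 5 unadjusted tests and their repeats, and Cxcl1 and Ccl9 rest on about 10 fragments or fewer per library.

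Set side by side, Cxcl10 had a log2 fold change of 0.78 in MC38 OE and -0.91 in B16-F10 KO, and Csf1 one of -0.74 in MC38 OE and -0.12 in B16-F10 KO. The difference between the lines' effects was not tested, since the tables were made separately and the manipulations differ. By the root mean square difference of log2(FPKM + 1) from the WT mean of each line over 15 libraries, the 2 of 9739 genes tested in both lines that were closest to Cxcl10 were Gja1, a gap junction protein, at 0.223, and Cav1, the caveolae coat protein, at 0.243. Gja1 had a log2 fold change of 0.43 in MC38 and -0.75 in B16-F10, and Cav1 one of 0.42 in MC38 and -0.71 in B16-F10. Closest to Csf1 were Rab3ip, a Rab exchange factor, at 0.0770, and Gpr137b-ps, a gene whose symbol marks a pseudogene, at 0.0779. Rab3ip had a log2 fold change of -0.64 in MC38 and -0.15 in B16-F10, and Gpr137b-ps one of -0.66 in MC38 and -0.07 in B16-F10. These genes were chosen by closeness in the same libraries. The likeness of their fold changes to those of Cxcl10 or Csf1 was therefore partly fixed by the choice.

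Wild-type levels differed widely between the lines, and are described without a test because the tables were made separately. Csf1 averaged 88.6 ± 3.01 FPKM in MC38 WT and 2.79 ± 0.279 FPKM in B16-F10 WT libraries (SD, n = 4 each), a ratio of 31.8. Ccl2 averaged 18.3 ± 1.33 FPKM and Ccl7 2.93 ± 0.698 FPKM in MC38 WT, and both were listed at 0 in every B16-F10 library. Cxcl1 averaged 1.72 ± 0.299 FPKM in MC38 WT and 0.0515 ± 0.0462 FPKM in B16-F10 WT. Smaller gaps were seen for Ccl5, at 1.95 ± 0.311 FPKM in MC38 WT and 0.565 ± 0.278 FPKM in B16-F10 WT, and for Cxcl10, at 23.4 ± 0.739 FPKM in MC38 WT and 6.97 ± 0.522 FPKM in B16-F10 WT. Cx3cl1 averaged 0.796 ± 0.0464 FPKM in MC38 WT and 0.423 ± 0.0687 FPKM in B16-F10 WT. For these 7 members the library ranges of the lines did not overlap and MC38 was the higher. The other 3, Ccl9, Cxcl12 and Cxcl16, were under 0.2 FPKM in every WT library of both lines, and their ranges overlapped.

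Among the 10 members Cxcl10 came first in B16-F10 WT libraries (6.20 to 7.32 FPKM), clear of Csf1 (2.47 to 3.03 FPKM). Csf1 was clear of Ccl5 and Cx3cl1, whose ranges overlapped. Cxcl10 made up 77.5 to 84.8% of the sum of the 9 member chemokines in B16-F10 KO libraries and 81.7 to 88.8% in WT libraries. In KO libraries its range overlapped that of Csf1. Ligands outside the members are not in that sum. Of these Ccl25 averaged above Cxcl10 in both groups (7.13 FPKM in KO and 8.62 FPKM in WT), and Ccl27a did in KO (4.06 FPKM) but not in WT (3.37 FPKM).

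**Figure D3:**
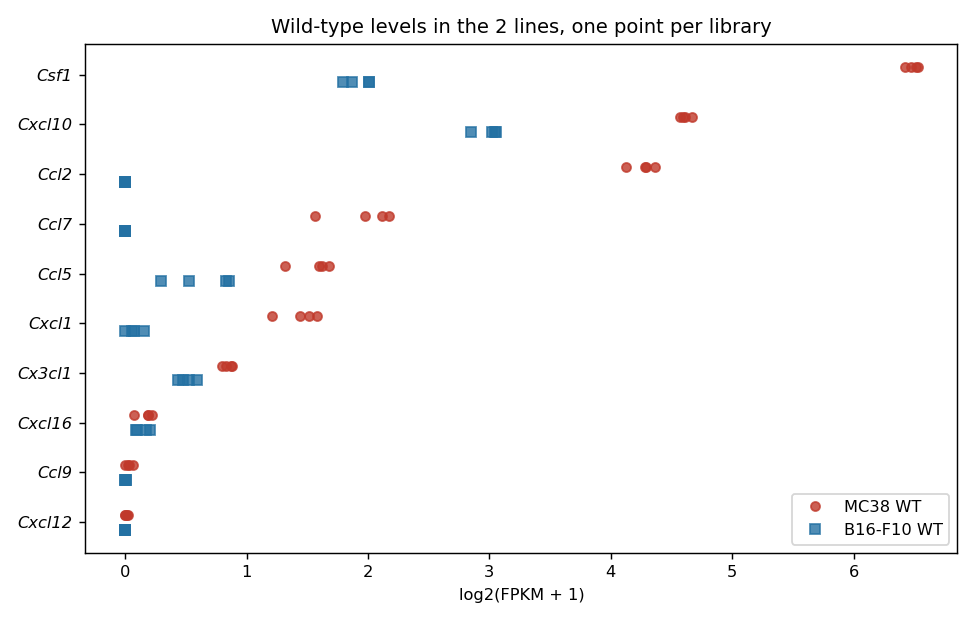
Log2(FPKM + 1) (horizontal axis) of each member in the 4 wild-type libraries of MC38 (red circles) and of B16-F10 (blue squares), ordered by the MC38 level. Csf1, Cxcl10 and Ccl2 lie highest in MC38, where Csf1 averaged 88.6 FPKM, while in B16-F10 Ccl2 and Ccl7 lie at 0 and Cxcl10 highest.

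Other chemokine ligands were mostly at 0 or low. Of 29 further ligands 16 were listed at 0 in all MC38 libraries and 22 in all B16-F10 libraries. In MC38 the 1 tested ligand rose, Ccl25, a chemokine known from thymus and small intestine, which averaged 7.08 ± 0.442 FPKM in OE and 4.99 ± 0.594 FPKM in WT (SD, n = 3 and 4; log2 fold change 0.44, adjusted p = 0.00161 by limma). In B16-F10 neither tested ligand passed: Ccl25 averaged 7.13 ± 0.864 FPKM in KO and 8.62 ± 1.01 FPKM in WT (adjusted p = 0.186 by limma), and Ccl27a, a skin-associated chemokine, 4.06 ± 0.392 FPKM in KO and 3.37 ± 0.242 FPKM in WT (SD, n = 4 each; adjusted p = 0.159 by limma).

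Chemokine receptors were mostly at 0 or low in these cells. Of 23 chemokine receptors 8 were listed at 0 in all MC38 libraries and 7 in all B16-F10 libraries, Ccr1, Ccr2 and Cxcr4 among them in both. Ccr10, a receptor for Ccl27a, was the 1 tested in MC38 and did not pass (1.13 ± 0.0830 FPKM in OE and 1.57 ± 0.342 FPKM in WT, SD, n = 3 and 4; adjusted p = 0.0677 by limma), although it passed without WT library 1 (adjusted p = 0.0333) or WT library 3 (adjusted p = 0.0447), and with chromosome centring (adjusted p = 0.0315). In B16-F10 Ccr10 and Ackr3 were tested and neither passed (adjusted p = 0.920 and 0.811 by limma). Cxcr3, the Cxcl10 receptor, named here after its values were seen, averaged 0.682 ± 0.169 FPKM in KO and 1.03 ± 0.463 FPKM in WT libraries of B16-F10 (SD, n = 4 each), under the filter over the line.

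Of 8 enzymes and partners that shed or trim such ligands 7 were tested in MC38. Of these 4 rose and 0 fell, where 23.9% of all tested genes rose and 23.6% fell. The share that passed in either direction was close to the 47.5% of all tested genes. The median log2 fold change was 0.23, beside -0.01 over all tested genes. The gelatinase Mmp9 averaged 17.4 ± 0.360 FPKM in OE and 8.54 ± 0.297 FPKM in WT (log2 fold change 0.95, adjusted p = 1.35e-07 by limma), the sheddase Adam17 59.2 ± 2.03 FPKM in OE and 50.3 ± 2.15 FPKM in WT (0.23, adjusted p = 0.00134), and its partner Rhbdf2 had a log2 fold change of 0.33 (SD, n = 3 and 4). Adam10 rose by a log2 fold change of 0.24. In B16-F10 0 of 6 tested passed by limma, 0 also at an unadjusted p under 0.05, with a median log2 fold change of -0.04 beside 0.02 over all tested genes.

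Among interferon pathway genes, which include the transcription factor Irf1 known to act on Cxcl10, 12 of 12 tested rose in MC38, where 23.9% of all tested genes rose. Of these Irf7, Ifit1, Ifit3, Rsad2 and Usp18, with WT means of 0.228 to 0.443 FPKM, reached the filter only through OE libraries, so their rise was partly fixed by the filter. The other 7 rose too, with a median log2 fold change of 1.26 beside -0.01 over all tested genes. In B16-F10 0 of 5 tested passed by limma, 0 also at an unadjusted p under 0.05, with a median of 0.09 beside 0.02 over all tested genes. Among NF-kB subunits and feedback genes 5 of 10 tested rose in MC38, led by Tnfaip3 (log2 fold change 0.66), Nfkbie (0.57) and Birc3 (0.49), and 3 fell, namely Nfkbib (-0.36), Rela (-0.13) and Nfkb1 (-0.12), where 23.9% of all tested genes rose and 23.6% fell. The median was 0.19, beside -0.01 over all tested genes. Of these 8 calls 5 were lost under at least 1 alternative, those of Nfkb1, Nfkb2, Rela, Nfkbia and Nfkbib, while Tnfaip3, Nfkbie and Birc3 passed under each that was run. In B16-F10 1 of 9 tested passed, Nfkb1, which rose (log2 fold change 0.27, adjusted p = 0.0307 by limma) but did not pass without 7 of the 8 libraries in turn. Whether these genes have a part in the change of the chemokines was not tested.

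**Figure D4:**
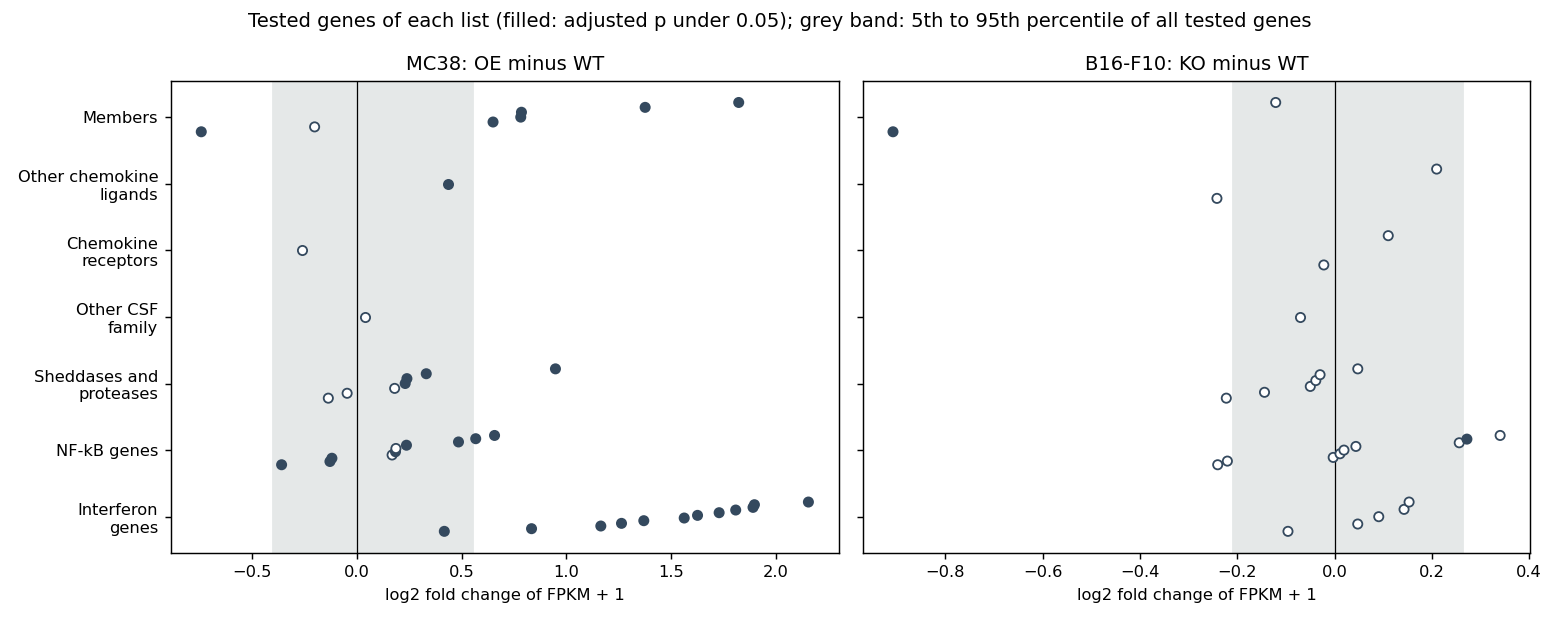
Log2 fold change of FPKM + 1 (horizontal axes, on different scales) of the tested genes of 7 lists in MC38, OE minus WT, and B16-F10, KO minus WT; each point is a gene, filled where it passed an adjusted p of 0.05, and the grey band spans the 5th to 95th percentile of all tested genes. In MC38 the interferon genes, of which 5 reached the filter only through OE, and 5 members lie to the right, and in B16-F10 Cxcl10 lies at -0.91 and the other points closer to 0.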

How the data were processed

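The 15 libraries were made from polyadenylated RNA by a strand-keeping kit, as the labels' protocols state. The authors deposited FPKM values by gene symbol, in a table per line, and the submitters' processing notes name GRCm39 and DESeq2 without versions. For the aligner, the counter and the annotation, the sources used here give no name. Library names tied columns to samples, with 0 columns unmatched. Columns summed to 482580 to 511160 FPKM.

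Depth was estimated from low FPKM values of single-transcript genes, using GENCODE M21 lengths (GRCm38, an earlier build than the authors'). Of these values 81.0 to 85.2% lay within 0.1 of a whole fragment, too few to recover reads, so no count model was used, and fragments per member are approximate. The files hold no fragment counts, so no counting intervals are given.

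Each line was fitted alone with limma 3.58.1 in R 4.3.3 on log2(FPKM + 1) using the trend option, over genes averaging at least 1 FPKM, with Benjamini-Hochberg adjustment over all tested genes. On this scale the changes of low genes are understated. Members under the filter were compared by two-sided exact permutation of group means. The fit was tested on simulated data. Alternatives changed the pseudocount, filter, scaling, variance model, weights, block and chromosome centring, and left out each library. Leaving out B16-F10 WT libraries in pairs was chosen after seeing the data. The members and lists were chosen with earlier results of these data known. Named genes are the members, Ssbp4, up to 3 called genes per list and direction or else the most abundant 2, tested markers, the 2 genes closest to a member, and genes beside a member. Promoter sequences are from RefSeq. Some genes of the lists and neighbourhoods are not reported here. Plots used Python 3.11.15 and matplotlib 3.10.9.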

Additional observations from a re-analysis of the deposited data

Results flagged for a closer look

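Among 24 sets of 4 libraries with a member above 0, 1 held a value that stood apart by Dixon's test at 95%, which chance gives in about 1 set in 20. Cxcl1 stood at 0.0224 FPKM in B16-F10 KO library 2 and was listed at 0 in the other KO libraries, a value of about 2 fragments.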

How the results depend on the processing

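In MC38 the 6 called members kept their direction and their call under all 10 alternatives that tested them (9 for Ccl7 and Cx3cl1, which a filter of 5 FPKM removes) and without each library. Cxcl1 passed only without OE library 3, its log2 fold change ranging from -0.33 to -0.12 over the fits that left out 1 library. The number of genes called in MC38 was 5107, and 3906 to 5463 over the alternatives. In B16-F10 it was 243, and 140 with a filter of 0.1 FPKM, 73 with none, 776 with library weights (whose estimate stopped short of its convergence tolerance in this line), 12 with the replicate number as a block, 157 with chromosome centring and 23 to 414 without single libraries. The genes higher in KO made up 145 of 243, and numbered 226 when libraries were scaled to a common total and 84 with median-of-ratios factors. Cxcl10 in B16-F10 kept a log2 fold change of -0.91 but did not pass with no filter (adjusted p = 0.0759) or with the block (adjusted p = 0.0765), and ranged from -1.07 to -0.79 without single libraries. The cause was not tested. Deviations of same-numbered libraries from their group means had correlations of -0.288 to -0.0664 in MC38 and -0.298 to 0.165 in B16-F10. With so few libraries per group, these cannot show whether same-numbered libraries share a batch. With the block 3906 genes passed in MC38. The wild-type differences between the lines moved by less than the spread between replicates under a common total and without each library. Of 40 permutation tests of 5 low B16-F10 members without single libraries 2 passed, Ccl5 without WT library 1 and Cxcl1 without WT library 4 (both p = 0.0286); in MC38 they were not repeated, since the smaller designs cannot reach 0.05.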

Other observations

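Genes beside the members in the annotation are given here as values. Ccl11, Ccl12 and Ccl8, next to Ccl2 and Ccl7, averaged no more than 0.0375 FPKM in OE and 0.00620 FPKM in WT libraries of MC38. Taf15, an RNA-binding protein gene near Ccl5, fell in MC38 (log2 fold change -0.31, limma adjusted p under 0.05), as did Nup54 (-0.31), Scarb2 (-0.32) and Sdad1 (-0.27) around Cxcl10 and Ciapin1 (-0.45) beside Cx3cl1. Near Csf1, which fell, Ahcyl1 had a log2 fold change of -0.24. These neighbours were taken by position and not by their values, and no test of position was run.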
